A study of Mus musculus with 2 samples.

Results

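The collagen genes were taken as every gene in the count tables whose symbol is Col, a number, the letter a and a number. There were 44 of them among 31053 genes. They were sorted by the known assembly of their proteins into 11 fibrillar collagens, 6 basement membrane collagens, 9 FACITs (fibril-associated collagens with interrupted helices) and 18 others. Each had at least 1 UMI (unique molecular identifier, the tag that counts a captured transcript once).

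The cells were fibro/adipogenic progenitors (FAPs), the mesenchymal cells of the muscle interstitium, sorted as 7AAD- Lin- Vcam- Sca1+ cells from limb muscle of 3-week-old C57BL/6 mice. One library is labelled *Bap1* WT and came from *Bap1*f/f controls. The other is labelled *Bap1* cKO, here *Bap1* ΔMPC, and came from Prx1-Cre;*Bap1*f/f mice, in which Cre under the Prx1 enhancer, active in limb bud mesenchyme, removes the floxed part of *Bap1*. Both carried the floxed allele, and the number of animals per library is not given in the sources used here. As each genotype is 1 library, differences could not be checked against replicates and have no p-value. *Bap1*, which codes for a nuclear deubiquitinase, had 897 and 1072 UMIs, which is 17.6 and 21.6 UMIs per 1000000 (CPM), in the *Bap1* WT and *Bap1* ΔMPC libraries. Counts of transcript 3′ ends do not tell whether the floxed exons are present, so this does not check the labels, and both libraries are named by their labels. Paired values stand in that order, and "higher" and "lower" describe the *Bap1* ΔMPC library unless cell groups are compared.

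Collagens are secreted proteins whose alpha chains wind into helical trimers. Fibrillar collagens, chiefly types I, III and V in muscle connective tissue, pack into the fibrils that bear load. Type IV forms the network of basement membranes such as the one around each myofiber, FACITs decorate fibrils, and type VI makes beaded filaments that link the basement membrane to the interstitium. FAPs and fibroblasts are a main source of fibrillar collagen transcripts in skeletal muscle.

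The stretches before the transcript starts of 4 genes are shown, chosen by the levels and ratios of the genes. Whether the sequences bear on the differences between the libraries was not tested. *Col3a1* was the most abundant collagen, *Col6a5* and *Col4a4* had the largest ratios between the libraries in either direction among collagens with 100 or more UMIs, and *Col8a1*, chosen after its values were seen, had the next largest upward ratio. They are RefSeq sequences of GRCm38.p6 (mm10), 5′ to 3′ on the strand of the gene, and cover the 120 bases before the annotated start. For *Col4a4* the 71 bases are the whole stretch between it and *Col4a3*, which is read in the other direction. Capitals mark the letters TATAAA and the GC-rich letters GGGCGG or CCGCCC, searched on both strands.
Col3a1, chr1:45311418-45311537, plus strand: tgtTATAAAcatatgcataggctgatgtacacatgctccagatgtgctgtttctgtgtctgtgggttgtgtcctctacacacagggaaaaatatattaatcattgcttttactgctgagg
Col6a5, chr9:105960644-105960763, minus strand: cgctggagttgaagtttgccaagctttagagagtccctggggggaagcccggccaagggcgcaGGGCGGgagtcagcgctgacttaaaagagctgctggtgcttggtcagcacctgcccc
Col8a1, chr16:57754738-57754857, minus strand: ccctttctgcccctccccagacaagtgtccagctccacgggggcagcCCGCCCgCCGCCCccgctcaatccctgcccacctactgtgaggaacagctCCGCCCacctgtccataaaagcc
Col4a4, chr1:82586850-82586920, minus strand: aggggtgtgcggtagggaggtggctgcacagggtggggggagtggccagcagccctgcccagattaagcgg

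Of the 44 collagens, 35 matched the RefSeq promoter table by symbol, with 38 starts. *Col1a1* and *Col14a1* were not among them, and the stretches of *Col1a2*, *Col4a1*, *Col4a2* and *Col6a1* lay within annotated exons and are not shown. TATAAA or its reverse complement TTTATA lay within 120 bases of 3 of the 38 collagen starts (*Col3a1*, *Col10a1* and *Col17a1*) and of 6.34% of all 32851 starts in the table. The letters GGGCGG or CCGCCC lay before 18 of the 38 collagen starts and 26.5% of all starts. CCAAT or ATTGG lay before 6 of the 38 and 21.3% of all. A match of letters is a description of the sequence and not a binding site.

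The libraries had 4103 and 4378 cells with 51015705 and 49540066 UMIs in all, at medians of 12232 and 11017.5 UMIs per cell. They shared 5 cell barcodes. Dpp4-type cells were those with 25 or more UMIs of *Pi16*, *Sema3c*, *Anxa3* and *Efemp1* together per 10000 UMIs, 1050 cells (25.6%) and 1251 cells (28.6%). This is a cut through a range and not a cell type: 804 and 1030 cells scored between 10 and 40. *Dpp4*, which the rule does not use, stood at 298 and 268 CPM in Dpp4-type cells and at 56.5 and 39.5 CPM in the other cells. The 6 FAP markers summed to 30044 and 24990 CPM, while *Pax7*, *Myf5*, *Myod1*, *Ptprc* and *Cd3e*, defining markers of muscle stem and immune cells, were at 0 in both libraries, from which cells high in markers of other muscle-resident types had been removed per the study's methods. The summed markers of tenocytes (230 and 487 CPM, higher for 7 of 8 genes), chondrocytes (33.7 and 61.8 CPM, 3 of 7), adipocytes (6.21 and 75.6 CPM, 6 of 6) and cycling cells (40.6 and 75.6 CPM, 5 of 5) were higher in the *Bap1* ΔMPC library, and those of mural (53.6 and 35.5 CPM, lower for 4 of 6) and endothelial cells (13.6 and 9.41 CPM, 3 of 6) were lower. The immune list summed to 7.92 and 14.0 CPM over 6 genes and the muscle stem list to 41.8 and 24.7 CPM over 5, most of the latter from *Vcam1* (37.6 and 20.5 CPM). Their part in the collagen values was not tested except where a value without such cells is given.

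Collagen transcripts made up 8.79% of all UMIs in the *Bap1* WT library and 5.49% in the *Bap1* ΔMPC library, 1.60-fold lower. The difference lay in the 3 chains of type I and type III collagen, which together stood at 73734 and 39501 CPM, a log2 ratio of −0.90. Intervals below are 95% intervals of the log2 ratio or ratio named before them and cover counting error only. The other 41 collagens together stood at 14205 and 15379 CPM. Fibrillar collagens summed to 77787 and 44032 CPM (log2 ratio −0.82), basement membrane collagens to 1908 and 2135 CPM (0.16), FACITs to 1120 and 1434 CPM (0.36) and the others to 7125 and 7280 CPM (0.03). Types I and III were 83.8% of the collagen UMIs in the first library and 72.0% in the second. Scaling by TMM (trimmed mean of M values) shifted every log2 ratio over all cells by −0.10, left the direction of the fibrillar, basement membrane and FACIT sums as given, and turned the sum of the other collagens to −0.07.

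Because each UMI counts one 3′ end, levels were not divided by transcript length. Of the 44 genes, 31 had 100 or more UMIs over both libraries, 10 had 20 to 99 and 3 had fewer (*Col9a1*, *Col19a1* and *Col25a1*). A gene counted as higher or lower past a fold only with 20 or more UMIs, which 41 collagens had. Among these, 10 were over 2-fold higher (6.63% of all 14729 genes with 20 or more UMIs were) and 7 were over 2-fold lower (5.37% of all genes). At 3-fold, the threshold of the study's methods, 4 collagens differed in either direction (5.27% of all genes). With 100 or more UMIs the 2-fold counts were 4 higher and 4 lower of 31. Under that minimum lay *Col2a1*, *Col9a2*, *Col9a3*, *Col22a1*, *Col6a4* and *Col10a1* of the higher and *Col24a1*, *Col4a6* and *Col26a1* of the lower collagens. In the *Bap1* WT library *Col2a1*, *Col22a1*, *Col6a4* and *Col10a1* had fewer than 20 UMIs and passed the minimum through the other library. The counts at 20 UMIs are thus not read as particular to collagens. The mean of per-cell CPM in place of the sums gave 7 higher and 8 lower. The shares of all genes above belong to the minimum of 20 UMIs and the sums, not to these alternatives. The median log2 ratio of the 41 collagens was 0.13 and that of all genes 0.10. Of the 31 collagens with 100 or more UMIs, 17 lay above 0 and 14 below, with intervals clear of 0 for 14 and 13 of them. Of all genes with 20 or more UMIs, a lower minimum, 60.7% lay above 0. How many of all genes had an interval clear of 0 was not counted. Under TMM, 3 of the 17 collagens above 0 (*Col6a2*, *Col8a2* and *Col23a1*) lay below it, so which side held most collagens depended on the scaling. A lower level was thus not common to all collagen genes.

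**Figure D1:**
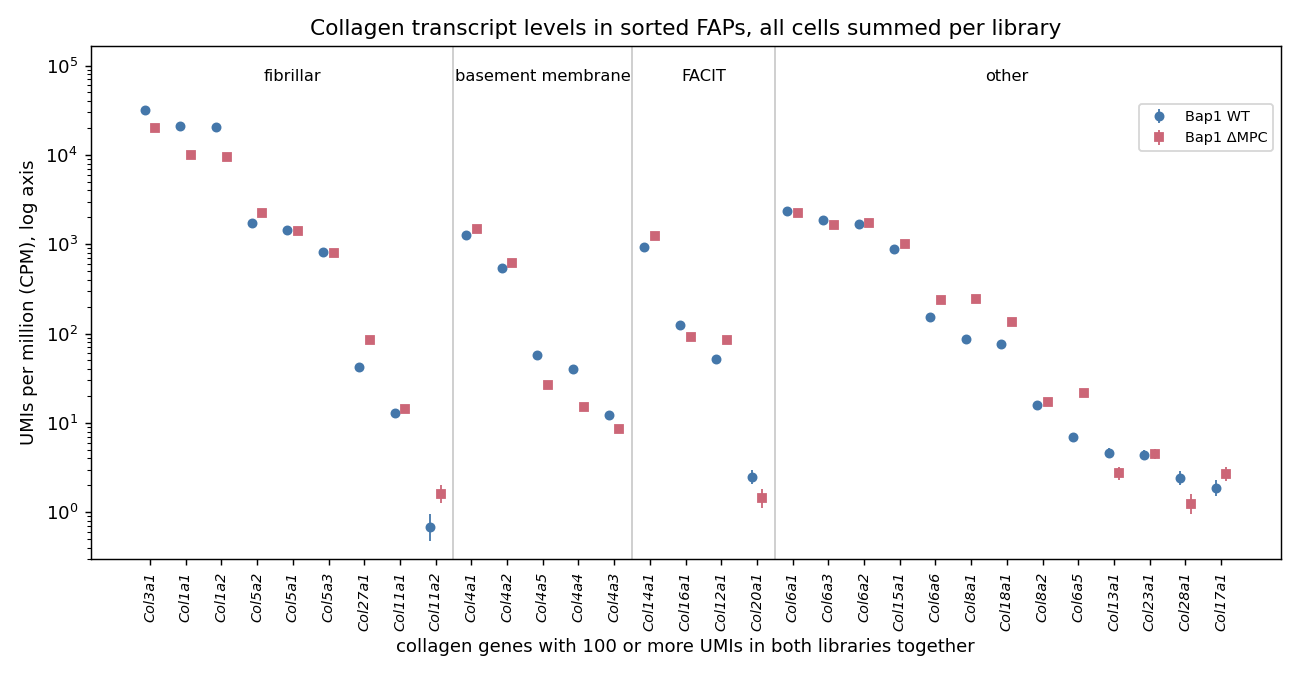
Level of the 31 collagen genes with 100 or more UMIs in the 2 libraries (CPM, log axis), by class, with all cells of a library summed; bars are 95% Poisson intervals for counting error and are mostly smaller than the points. Col3a1, Col1a1 and Col1a2 are the highest points in both libraries and are lower in the Bap1 ΔMPC library, while Col8a1 and Col6a5 are higher there.

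Type I collagen, the main fibril of tendon, bone and muscle connective tissue, is built from the products of *Col1a1* (chr11:94936224-94953042, GRCm38) and *Col1a2* (chr6:4504814-4541544). *Col1a1* stood at 21267 CPM in the *Bap1* WT library and 9859 CPM in the *Bap1* ΔMPC library, 2.16-fold lower, and *Col1a2* at 20780 and 9386 CPM, with log2 ratios of −1.11 and −1.15. *Col3a1* (chr1:45311538-45349706), the chain of the type III fibrils of soft tissue, stood at 31688 and 20255 CPM (−0.65). It was the most abundant of all genes in both libraries. Of all 31053 genes, these 3 had the largest negative differences in CPM (−11432 for *Col3a1*, −11407 for *Col1a1* and −11395 for *Col1a2*), ahead of *Sparc*, which codes for a collagen-binding matrix protein (−9093). They held 33.4% of the CPM lost over all genes that were lower. Among the 172 genes with 100000 or more UMIs, 4 were over 2-fold lower (*Col1a1*, *Col1a2*, *Mgp* and *Itm2a*) and 0 were over 2-fold higher.

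The proportion of the type I chains to each other was nearly the same in both libraries, and that of type III to type I was not. The ratio of *Col1a1* to *Col1a2* UMIs was 1.02 in the *Bap1* WT library and 1.05 in the *Bap1* ΔMPC library, close to equal counts of the 2 chains in both. The ratio of *Col3a1* to *Col1a1* was 1.49 in the first library and 2.05 in the second.

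Of the other fibrillar collagens, those of types V, XI and XXVII did not share a lower level of this size. Type V, which is built into type I fibrils and limits their width, had *Col5a1* at 1459 and 1399 CPM (−0.06), *Col5a2* at 1726 and 2225 CPM (0.37) and *Col5a3* at 812 and 807 CPM (−0.01). *Col5a2* (chr1:45374321-45503282) lies tail to tail with *Col3a1*, 24614 bases apart, and the neighbours differed in opposite directions. The UMIs of *Col5a2* per UMI of *Col1a1* were 0.0811 and 0.226, and those of *Col5a1* per *Col5a2* were 0.845 and 0.629. *Col27a1* (chr4:63214004-63334991), a fibrillar collagen best known from cartilage, stood at 41.8 and 83.9 CPM, 2.01-fold higher (interval 0.93 to 1.08 on the log2 scale). *Col11a1* and *Col11a2*, chains of the type XI fibrils that accompany type II in cartilage, had 13.0 and 14.2 CPM (0.13, interval −0.03 to 0.28) and 35 and 80 UMIs (1.23, interval 0.64 to 1.85). *Col2a1*, the cartilage fibril chain, had 5 and 20 UMIs, of which 0 and 11 lay in cells with 3 or more UMIs of the tendon genes *Chad*, *Tnmd* and *Cilp2*, and *Col24a1* had 17 and 3. There were 131 and 285 such tendon-gene cells. Of the 702 UMIs of *Col11a1* in the *Bap1* ΔMPC library, 67.4% lay in them, against 47.7% of the 661 in the *Bap1* WT library. Without such cells in either library its log2 ratio was −0.50, and that of *Col11a2* was 0.33 (interval −0.36 to 1.04). Of the 7 chondrocyte markers, 3 were higher, 2 were lower, and *Matn1* and *Ucma* were at 0 in both libraries. Among the higher ones, *Acan* had 2 and 61 UMIs. *Sox9*, at 31.9 and 59.2 CPM, held most of the sum of the list (33.7 and 61.8 CPM).

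The 6 type IV genes lie in head-to-head pairs, and the pairs differed in direction. *Col4a1* (chr8:11198423-11312826) and *Col4a2* (chr8:11312805-11449287), the chains found in nearly all basement membranes, overlap by 22 bases at their starts. *Col4a1* stood at 1260 and 1474 CPM (0.23) and *Col4a2* at 538 and 610 CPM (0.18), in a ratio of 2.34 and 2.42. The ratio of *Col4a1* depended on the depth of the cells, as given below. The chains of the more restricted networks of kidney, lung and smooth muscle were lower. *Col4a4* stood at 39.9 and 15.1 CPM (−1.40, interval −1.53 to −1.28), *Col4a3*, 71 bases from it, at 12.4 and 8.54 CPM (−0.54, interval −0.72 to −0.36), and *Col4a5* (chrX:141475385-141689234) at 57.1 and 26.4 CPM (−1.11, interval −1.21 to −1.02). *Col4a6*, whose start lies 1308 bases from that of *Col4a5*, had 69 and 28 UMIs (−1.26, interval −1.95 to −0.61). Both of these genes lie on the X chromosome. *Xist*, an RNA of female cells, stood at 791 and 702 CPM, so both libraries held female cells. The study's methods name only male mice for whole transcriptomic analysis. How the sexes were divided in each library was not tested. Without cells with 3 or more UMIs of the adipocyte markers the ratio of *Col4a1* was 0.20. Within the *Col4a3* and *Col4a4* pair the proportion was not kept, with 3.21 UMIs of *Col4a4* per *Col4a3* (interval 2.94 to 3.52) in the first library and 1.77 (1.57 to 1.99) in the second. The UMIs of *Col4a1* per *Col4a5*, the most abundant chains of the common and the restricted networks, were 22.1 and 55.8. In the *Col4a5* and *Col4a6* pair the intervals overlapped, at 42.2 (33.2 to 54.4) and 46.7 (32.2 to 70.6) UMIs of *Col4a5* per *Col4a6*.

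Among FACITs, *Col14a1* (chr15:55307750-55520803), whose protein sits on type I fibrils, held most of the UMIs of the class and stood at 938 and 1253 CPM (0.42). *Col12a1*, its close relative in tendon and muscle fascia, stood at 51.6 and 85.5 CPM (0.73, interval 0.66 to 0.80), and at a log2 ratio of 0.57 without the tendon-gene cells. *Col16a1*, found next to fibrils and microfibrils, went the other way at 126 and 91.0 CPM (−0.47, interval −0.53 to −0.42), as did *Col20a1* at 127 and 71 UMIs (−0.80, interval −1.24 to −0.37). The remaining FACITs were near the detection limit. The type IX chains of cartilage had 22 and 50 UMIs (*Col9a2*), 22 and 59 (*Col9a3*) and 1 and 12 (*Col9a1*). *Col22a1*, a collagen of tissue junctions such as the myotendinous junction, had 13 and 33 UMIs. Of the 13, 11 lay in Dpp4-type cells (defined above), and of the 33, 30 lay in the other cells, 29 in tendon-gene cells and 17 in 1 cell.

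Type VI collagen differed little in its main chains. *Col6a1* stood at 2336 and 2237 CPM (−0.06), *Col6a2* at 1666 and 1721 CPM (0.05, and −0.05 under TMM) and *Col6a3* at 1877 and 1636 CPM (−0.20). Mutations in any of these chains cause muscular dystrophy in people. The chains that can stand in for that of *Col6a3* lie side by side on chromosome 9 and were higher. *Col6a6* stood at 154 and 237 CPM (0.62, interval 0.58 to 0.66), *Col6a5* at 6.98 and 21.7 CPM (1.64, interval 1.46 to 1.81, 3.11-fold higher) and *Col6a4* had 15 and 41 UMIs. The UMIs of *Col6a6* per *Col6a3* were 0.0821 and 0.145.

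Of the network-forming collagens, *Col8a1* (chr16:57624258-57754737), known from vessel walls and the cornea, stood at 86.9 and 247 CPM (1.51, interval 1.46 to 1.56), while its partner chain *Col8a2* stood at 16.0 and 17.0 CPM (0.09, interval −0.05 to 0.23). Their ratio was 5.42 in the *Bap1* WT library and 14.5 in the *Bap1* ΔMPC library. *Col8a1* was held by few cells. The 42 and 44 cells with the most UMIs of it, 1 in 100 cells of each library, contained 33.8% and 48.5% of its UMIs, against 5.51% and 10.1% for *Col1a1*. One cell of the *Bap1* ΔMPC library had 442. Tendon-gene cells held 7.35% and 35.6% of them, and without those cells the log2 ratio was 1.04 (interval 0.98 to 1.09) for *Col8a1* and −0.42 for *Col8a2*. *Col10a1*, the collagen of hypertrophic cartilage, had 0 and 59 UMIs, the latter in 40 cells. The 59 are at least 16.0-fold higher by the lower limit of the 95% interval, and 20.3-fold higher against a floor of 3 counts in the *Bap1* WT library. Of the 59, 1 lay in a tendon-gene cell.

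The multiplexins, basement membrane-associated collagens that release antiangiogenic fragments, were higher. *Col15a1* stood at 890 and 1014 CPM (0.19) and *Col18a1*, the source of endostatin, at 76.4 and 136 CPM (0.83, interval 0.77 to 0.89). Their ratios were 0.17 and 0.84 without adipocyte-marker cells. The ratio of *Col15a1* also depended on the depth of the cells. The transmembrane collagens were sparse and mixed, with *Col13a1* at 233 and 136 UMIs (−0.73, interval −1.05 to −0.42), *Col17a1* at 95 and 134 (0.54, interval 0.15 to 0.93), *Col23a1* at 223 and 224 (0.05, interval −0.23 to 0.32) and *Col25a1* at 1 UMI in each library. *Col28a1* had 123 and 62 UMIs (−0.95, interval −1.41 to −0.49), *Col26a1* 68 and 27, and *Col7a1*, the chain of the anchoring fibrils of skin, 34 and 51. *Col19a1* had 2 and 1 UMIs. The ratios of *Col6a2*, *Col8a2* and *Col23a1*, which lay between 0 and 0.10, changed sign under TMM.

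The next comparison asked whether the collagens differed between the libraries alike in Dpp4-type cells, which are high in genes of the Dpp4+ FAPs the study centres on, and in the other cells. In Dpp4-type cells collagens were 7.33% and 4.90% of UMIs (log2 ratio −0.58), and in other cells 9.35% and 5.74% (−0.71). Basement membrane collagens stood at 615 and 834 CPM in Dpp4-type cells (0.44) and 2403 and 2687 CPM in other cells (0.16), and FACITs at 1337 and 1688 CPM (0.34) and 1036 and 1326 CPM (0.36). Of the 31 collagens with 20 or more UMIs in Dpp4-type cells, 2 were over 2-fold higher (*Col27a1* and *Col18a1*; 4.34% of all genes) and 2 were over 2-fold lower (*Col4a5* and *Col28a1*; 4.51% of all genes). At 3-fold there were 2 (*Col27a1* and *Col4a5*; 3.52% of all genes). In these cells *Col28a1* rested on 28 and 12 UMIs (−1.29, interval −2.40 to −0.27), against 658 and 209 for *Col4a5*. In other cells 40 collagens could be compared. Of these, 10 were over 2-fold higher (7.22% of all genes) and 5 over 2-fold lower (5.25% of all genes). At 3-fold there were 7 (5.86% of all genes), of which *Col6a5* and *Col8a1* had 100 or more UMIs. Under TMM the 2-fold counts in other cells were 9 and 7, and the shares of all genes given here are without TMM.

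**Figure D2:**
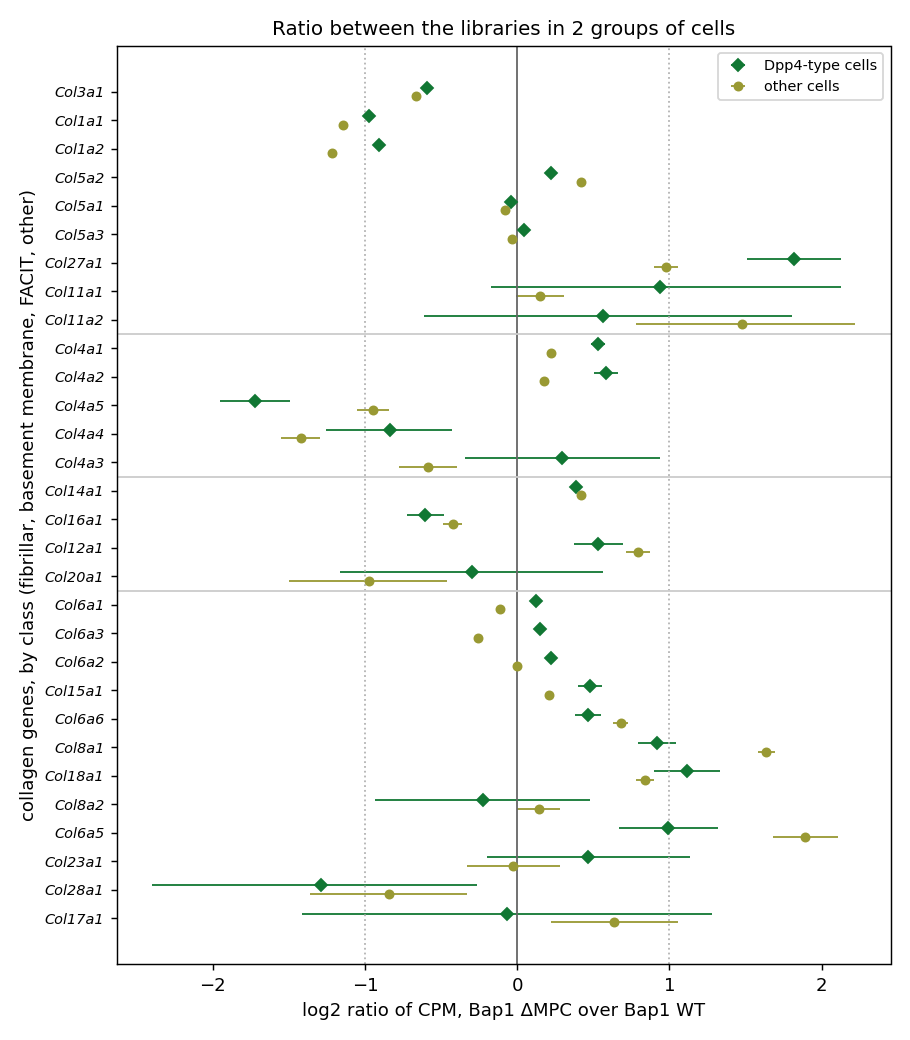
Log2 ratio of CPM between the libraries (Bap1 ΔMPC over Bap1 WT) for 30 collagen genes in Dpp4-type cells (diamonds) and other cells (circles), by class; bars are 95% intervals for counting error and dotted lines mark 2-fold. Col1a1, Col1a2 and Col3a1 lie left of 0 in both cell groups, and Col6a1 and Col6a3 lie on opposite sides of 0.

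Types I and III were lower in both groups of cells. *Col1a1* stood at 17081 and 8704 CPM in Dpp4-type cells (−0.97) and at 22868 and 10350 CPM in other cells (−1.14). *Col1a2* had log2 ratios of −0.91 and −1.22, and *Col3a1* of −0.59 and −0.66. The *Bap1* ΔMPC library was below the *Bap1* WT library in each cell group for all 3 genes, and the ratios of the cell groups differed by 0.17, 0.31 and 0.07 for *Col1a1*, *Col1a2* and *Col3a1*.

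For 31 collagens with 10 or more UMIs in each of the 4 sums, the log2 ratio in Dpp4-type cells minus that in other cells had an interval above 0 for 15 and below 0 for 8. These intervals cover counting error only. The same count was not made over all genes, so it is not read as particular to collagens. *Col27a1* was at 8.01 and 28.2 CPM in Dpp4-type cells and at 54.7 and 107 CPM in other cells, a difference in log2 ratio of 0.84 (interval 0.53 to 1.15). *Col4a5* was at 46.6 and 14.2 CPM in Dpp4-type cells and 61.1 and 31.6 CPM in other cells, a difference of −0.77 (interval −1.02 to −0.52). *Col8a1* was at 56.5 and 107 CPM against 98.6 and 306 CPM, a difference of −0.72, and *Col6a5* at 8.43 and 16.7 CPM against 6.42 and 23.8 CPM, a difference of −0.90. *Col4a1* and *Col4a2* had larger upward ratios in Dpp4-type cells (0.53 and 0.58) than in other cells (0.22 and 0.17), and so did the multiplexins *Col15a1* (0.48 and 0.21) and *Col18a1* (1.11 and 0.84). The sum of the basement membrane collagens was 3.90-fold higher in other than in Dpp4-type cells of the *Bap1* WT library and 3.22-fold higher in the *Bap1* ΔMPC library, while *Col4a5* went from 1.31-fold to 2.23-fold. *Col4a4* was lower in both cell groups, at 9.56 and 5.35 CPM in Dpp4-type cells (−0.84, interval −1.26 to −0.43) and 51.5 and 19.2 CPM in other cells (−1.42, interval −1.55 to −1.29). For *Col4a3* the ratio in Dpp4-type cells rested on 39 and 50 UMIs (0.29, interval −0.34 to 0.94), and it was −0.59 in other cells. Of the fibril-associated chains, *Col12a1* had ratios of 0.53 and 0.79, *Col16a1* of −0.60 and −0.42, and *Col14a1* of 0.38 and 0.42, an interval of the difference for the last that includes 0 (−0.07 to 0.00). The main type VI chains lay above 0 in Dpp4-type cells (0.12, 0.22 and 0.15 for *Col6a1*, *Col6a2* and *Col6a3*) and at or below 0 in other cells (−0.11, −0.00 and −0.26), so that type VI as a whole stood at 4427 and 4999 CPM in the former and 6657 and 6215 CPM in the latter.

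Within each library, Dpp4-type cells carried less of the basement membrane and multiplexin collagens than other cells. The score that divides the cells uses no collagen. In the *Bap1* WT library, 16 of 36 collagens were over 2-fold lower in Dpp4-type cells (11.4% of all genes) and 0 were over 2-fold higher (5.63%), and at 3-fold there were 13 (10.1%). In the *Bap1* ΔMPC library, 21 of 40 were over 2-fold lower (12.3% of all genes), 0 were over 2-fold higher (4.67%), and 16 passed 3-fold (9.69%). The median log2 ratio of Dpp4-type over other cells was −0.56 for those 36 collagens and −1.11 for those 40. For all genes it was −0.02 and −0.06. As the sets differ, neither these medians nor the counts compare the libraries. *Col2a1*, *Col22a1*, *Col6a4* and *Col10a1* reached 20 UMIs only in the second library, with most of them in other cells. All collagens summed were 1.28-fold higher in other cells of the first library and 1.17-fold in those of the second. Median depths were 13635 and 11661 UMIs in Dpp4-type cells and 11829 and 10733 in other cells.

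Among the 25 collagens with 1000 or more UMIs over both libraries, the differences between the cell groups were largest for *Col11a1* (22.6-fold and 13.1-fold higher in other cells), *Col8a2* (7.85-fold and 10.1-fold) and *Col15a1*. In Dpp4-type and other cells *Col11a1* had 11 and 650 UMIs in the *Bap1* WT library and 22 and 680 in the *Bap1* ΔMPC library, and *Col8a2* had 38 and 780, and 34 and 810, so that these folds rest on few UMIs in Dpp4-type cells. *Col15a1* was far more abundant, at 155 CPM in Dpp4-type and 1171 CPM in other cells of the *Bap1* WT library (7.56-fold) and 216 and 1352 CPM in the *Bap1* ΔMPC library (6.26-fold). Genes of the Cxcl14+ FAP subpopulation (*Cxcl14*, *Smoc2*, *Hsd11b1* and *Crispld2*) lay in the same direction, at a sum of 283 and 241 CPM in Dpp4-type and 1810 and 1567 CPM in other cells. *Col4a1* was 3.92-fold and 3.17-fold higher in other cells, *Col4a2* 4.53-fold and 3.41-fold, *Col18a1* 5.49-fold and 4.54-fold, and *Col27a1* 6.83-fold and 3.82-fold. *Col4a4* and *Col4a3* had the same direction, at 5.38-fold and 3.59-fold and at 5.83-fold and 3.17-fold. *Col13a1*, with fewer than 1000 UMIs, had 3 in Dpp4-type and 230 in other cells of the first library and 3 and 133 in the second.

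A smaller set was even between the cell groups or leaned to Dpp4-type cells. *Col14a1* was 1.43-fold and 1.40-fold higher in Dpp4-type cells (1201 against 838 CPM, and 1568 against 1119 CPM), and the FACIT sum, of which it was the most abundant gene, 1.29-fold and 1.27-fold. *Col5a1* was 1.22-fold and 1.25-fold higher, and *Col5a3* 1.04-fold and 1.10-fold. *Col3a1* was lower in Dpp4-type cells by a factor of 1.11 and 1.05 and *Col1a1* by 1.34 and 1.19. *Col6a3* differed more from other to Dpp4-type cells than its partners in the *Bap1* WT library, by 2.03-fold against 1.36-fold for *Col6a1* and 1.33-fold for *Col6a2*. In the *Bap1* ΔMPC library the same values were 1.53, 1.15 and 1.13. *Col6a5* stood 1.31-fold higher in Dpp4-type cells of the first library and 1.42-fold lower in those of the second.

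Cells were also divided into 5 bins of the score. In the *Bap1* WT library, *Col4a1* stood at 1718 CPM in cells scoring under 5, then 1482, 1188 and 658 CPM, and 255 CPM in cells scoring 50 or more. In the *Bap1* ΔMPC library it ran from 2106 to 424 CPM. *Col15a1* ran from 1252 to 54.3 CPM and from 1547 to 115 CPM. These levels fell on both sides of the cut of 25, and whether the fall was graded or stepped was not tested. *Col14a1* was lowest in the bin of 5 to under 15 (806 and 1013 CPM) and highest in the top bin (1277 and 1693 CPM). *Col1a1* was lower in the *Bap1* ΔMPC library in each of the 5 bins, from 25093 against 11090 CPM in the lowest to 16310 against 7555 CPM in the highest, and so was *Col3a1*. *Col8a1* was highest between 5 and 25 in both libraries, at 128 and 187 CPM in the first and 496 and 476 CPM in the second, against 39.6 and 117 CPM at 50 or more.

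**Figure D3:**
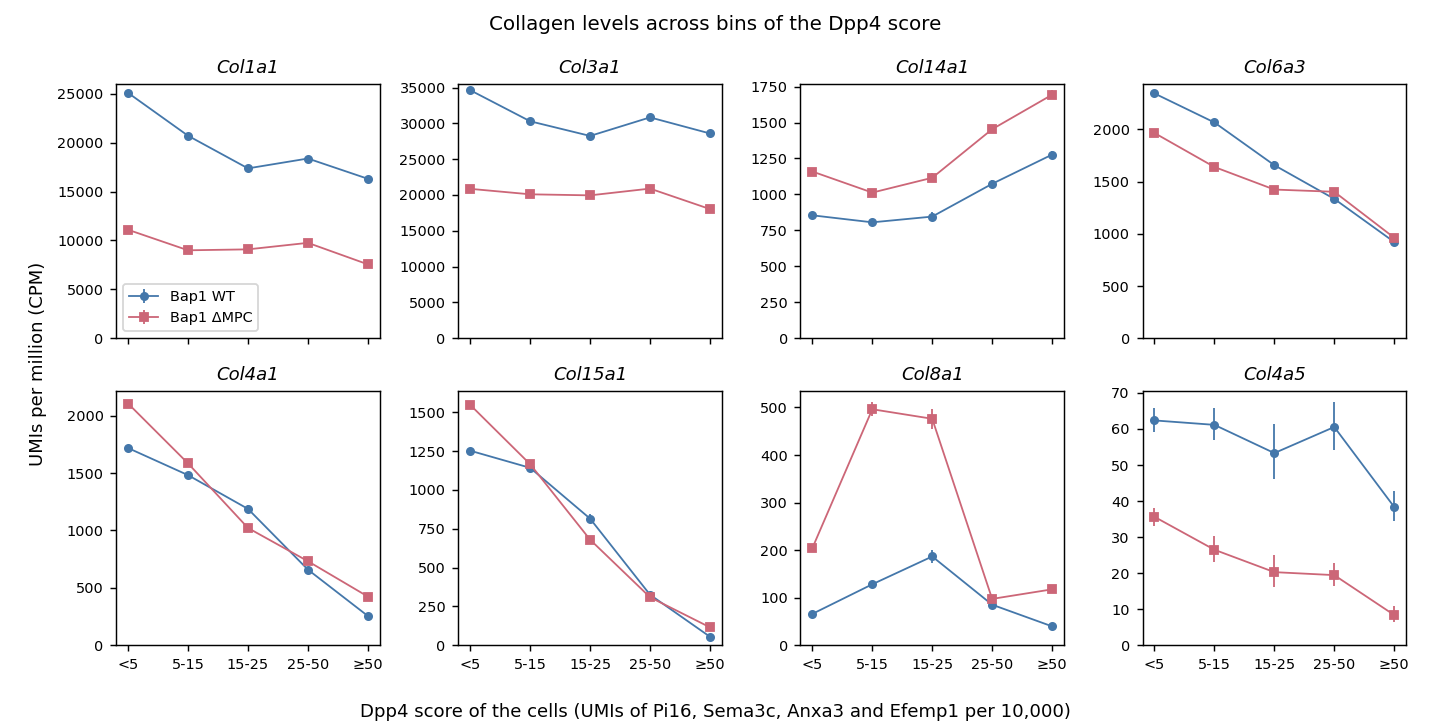
Level of 8 collagen genes (CPM, axes from 0) in cells of both libraries binned by the Dpp4 score, the UMIs of Pi16, Sema3c, Anxa3 and Efemp1 per 10,000; bars are 95% Poisson intervals for counting error. Col4a1 and Col15a1 decline with the score and Col14a1 is highest at 50 or more in both libraries, while Col1a1, Col3a1 and Col4a5 are lower in the Bap1 ΔMPC library in every bin.

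The lower level of types I and III was spread over the cells. The share of *Col1a1*, *Col1a2* and *Col3a1* among the UMIs of a cell had a median of 5.91% in the *Bap1* WT library (5th to 95th percentile 2.42% to 15.9%) and 2.94% in the *Bap1* ΔMPC library (0.971% to 9.64%). Of the cells in the latter, 83.7% lay below the median of the former, 80.9% of Dpp4-type and 84.9% of other cells. For type IV the medians were 0.141% and 0.144%, and 49.1% of cells lay below, and for type VI they were 0.548% and 0.529%, with 52.6% below. The shares overlapped widely between the libraries for all of these sets. Types I and III took 64642 and 36950 CPM in cells under 8000 UMIs and 86706 and 49954 CPM in cells of 16000 or more, so the libraries were compared within ranges of depth. The log2 ratio of *Col1a1* was −0.98 in cells under 8000 UMIs, −1.16 at 8000 to under 12000, −1.08 at 12000 to under 16000 and −0.99 at 16000 or more. *Col3a1* lay between −0.70 and −0.52 in the same ranges. The ratio of *Col8a1* was 1.49, 1.02, 1.34 and 2.20, and that of *Col15a1* was −0.03, 0.01, 0.08 and 0.54, clear of 0 only from 12000 UMIs upward. *Col4a1* ran from 0.03 (interval −0.02 to 0.08) in cells under 8000 UMIs through 0.14 and 0.16 to 0.41 in the deepest, so that its higher level was not seen in the shallowest cells. *Col4a4* lay between −1.71 and −1.16, *Col6a5* between 1.46 and 1.91 and *Col27a1* between 0.75 and 1.15, each in 1 direction in all 4 ranges.

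**Figure D4:**
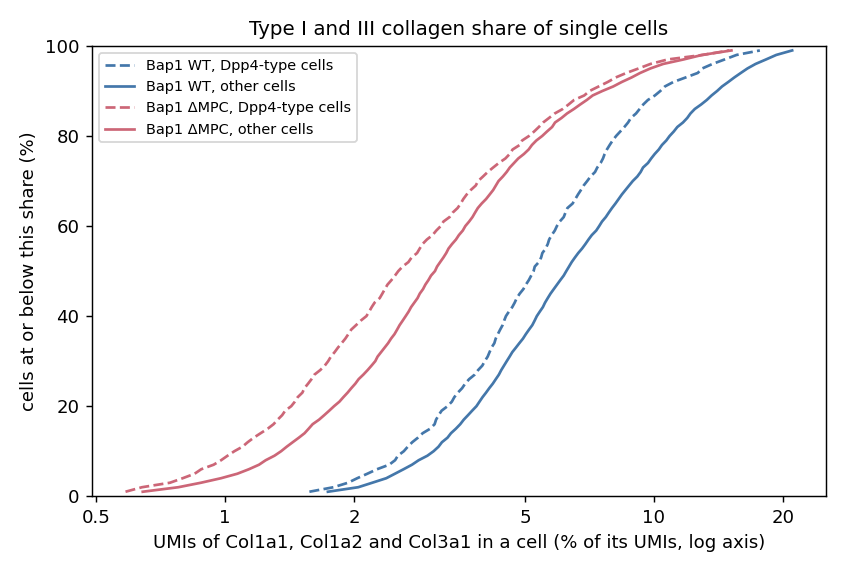
Cumulative share of cells (y axis, %) by the type I and III collagen UMIs in a cell (x axis, % of its UMIs, log axis) in both libraries, for Dpp4-type cells (dashed) and other cells (solid). Both curves of the Bap1 ΔMPC library lie left of both curves of the Bap1 WT library, with medians of 2.53% and 3.08% against 5.24% and 6.24%.

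Collagen chains are hydroxylated, folded and exported with the help of a set of enzymes and chaperones, and 24 of 26 listed maturation genes were in the tables. Of these 24, 0 were over 2-fold higher or lower in all cells (6.63% and 5.37% of all genes), while 19 lay below 0 (39.3% of all genes), with a median log2 ratio of −0.22 against 0.10 for all genes. *Serpinh1*, the collagen chaperone HSP47, stood at 2048 and 1480 CPM (−0.47) and *P4ha2*, a prolyl hydroxylase subunit, at 186 and 94.5 CPM (−0.98). *Creb3l1*, a transcription factor of collagen secretion, stood at 167 and 93.8 CPM (−0.83) and *Fkbp14*, a collagen foldase, at 99.6 and 57.0 CPM (−0.80). *P4hb*, *Plod2* and *Plod3*, which also modify collagen, lay above 0 at 0.24, 0.30 and 0.32. *Plod2* differed in sign between the cell groups, at −0.54 (interval −0.66 to −0.43) in Dpp4-type and 0.53 in other cells, while *P4hb* (0.12 and 0.29) and *Plod3* (0.36 and 0.30) lay above 0 in both.

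Of the genes that process or cross-link collagen outside the cell, 17 of 19 had 20 or more UMIs. *Lox*, the lysyl oxidase that cross-links type I fibrils, was the 1 of these 17 that was over 2-fold lower (5.37% of all genes), at 186 and 86.5 CPM (−1.10), and 0 were over 2-fold higher (6.63%). Its relative *Loxl2* (349 and 554 CPM, 0.67) and the procollagen peptidases *Adamts2* (474 and 666 CPM, 0.49) and *Adamts14* (12.4 and 19.6 CPM, 0.66) lay above 0. The collagen-binding *Sparc* stood at 20836 and 11742 CPM (−0.83). The median of the list was −0.06, and 9 of the 17 lay below 0. Of 10 collagen receptors with 20 or more UMIs, 9 lay above 0 (60.7% of all genes), with a median of 0.57. Over 2-fold, 2 were higher and 1 lower, against 6.63% and 5.37% of all genes. The collagen-binding tyrosine kinase *Ddr2* stood at 278 and 387 CPM (0.48) and the uptake receptor *Mrc2* at 196 and 285 CPM (0.54). *Itga1*, an integrin chain that binds type IV collagen, was the exception at 39.4 and 13.1 CPM (−1.59). *Cd36* (13 and 97 UMIs) and *Adgrg1* (6 and 19 UMIs) were over 2-fold higher at low counts. *Cd36* is also an adipocyte gene, and the adipocyte markers differed in the same direction, as given above.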

How the data were processed

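Single-cell RNA-Seq libraries of sorted FAPs (10x Genomics 3′ v3.1 chemistry, 1 per genotype) were analysed from the UMI counts per gene and cell deposited by the authors. Per the submitters' processing notes these came from Cell Ranger 3.1.0 on mm10 and Seurat 3.2.1, and the methods name quality control, doublet gating and the removal of cells high in markers of other muscle-resident cells. Every deposited cell had 1501 to 4998 genes and under 5% mitochondrial UMIs. No cell was removed and no doublet caller was run here. The collagens, classes and gene lists were chosen with earlier results of these data known, and the alternatives by depth range were added after seeing the data. Collagens with 100 or more UMIs were named with their values and the rest by UMI count.

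UMIs were summed per library over all cells, Dpp4-type cells and other cells and divided by the total of the group (CPM). Intervals are 95% exact Poisson for CPM, exact binomial for ratios of sums and Clopper-Pearson for shares. Those of a difference between log2 ratios are normal approximations from the counting variances of the sums. They cover counting error only, not the spread between animals. A count of 0 was set to a floor of 3 counts. Fold calls and the intervals of ratios were tested on simulated Poisson counts, which hold no spread between cells or animals. Alternatives changed the scaling (TMM factors, edgeR 4.0.16, which ran no test), the total, the weight of cells, the minimum of UMIs, the cut, the depth and the cells kept. Gene positions are from GENCODE M21 and sequences from RefSeq. R 4.3.3, Python 3.11.15 and scipy 1.17.1 were the tools. Bulk RNA-Seq of the study was not analysed here.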

Additional observations from a re-analysis of the deposited data

Results flagged for a closer look

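Of the collagens with the fixed minimum of UMIs and an interval clear of 0 in both cell groups, 3 had ratios between the libraries of opposite sign in Dpp4-type and other cells. The log2 ratio of *Col5a3* was 0.046 in Dpp4-type and −0.035 in other cells, that of *Col6a1* 0.12 and −0.11, and that of *Col6a3* 0.15 and −0.26. With 1 library per genotype these differences were not tested beyond counting error, and the sign for *Col5a3* depends on the scaling. How many of all genes meet the same rule was not counted.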

How the results depend on the processing

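No paired analysis was possible because there is only 1 library of either genotype, so replicates could not be left out either. The log2 ratio of collagen CPM between the libraries stayed below 0 in every alternative. In all cells (−0.68) it was −0.78 under TMM, −0.69 after thinning to 5000 UMIs, −0.68 without the 5% of cells with the most UMIs, −0.68 without cycling cells, −0.67 without tenocyte-marker cells, −0.68 without adipocyte-marker cells, and −0.61, −0.69, −0.65 and −0.61 in the 4 ranges of depth. In Dpp4-type cells (−0.58) it was −0.65 under TMM, −0.59 as a mean over cells, −0.57 with a cut of 15, −0.63 with a cut of 40, −0.63 without cells near the cut, −0.60 after thinning, −0.57 without the deepest cells and −0.59 without tenocyte-marker cells. In other cells (−0.71) the values were −0.82 under TMM, −0.70 as a mean, −0.72 and −0.70 with cuts of 15 and 40, −0.73 without cells near the cut, −0.71 without the deepest cells, −0.69 without tenocyte-marker cells and −0.70 without adipocyte-marker cells.

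Counts of collagens past a fold rested more on the minimum of UMIs, since genes under 100 UMIs leave the comparison when it is raised. Shares of all genes are not given for the alternatives below. With 100 UMIs in place of 20, the 17 collagens over 2-fold in all cells became 8, the 15 in other cells 5 and the 21 between cell groups of the library labelled *Bap1* ΔMPC 13. The 4 over 2-fold in Dpp4-type cells became 7 with no minimum and 7 with a cut of 15. At 3-fold, the 4 in all cells became 1 with 100 UMIs and 2 without tenocyte-marker cells, the 2 in Dpp4-type cells 4 with no minimum, and the 7 in other cells 2 with 100 UMIs, 4 after thinning and 3 without tenocyte-marker cells. Among ratios with an interval clear of 0, signs turned in 5 cases, for *Col5a3* in Dpp4-type cells under TMM (−0.027) and in other cells without tenocyte-marker cells (0.022), for *Col6a2* in all cells under TMM (−0.051) and with collagens left out of the total (−0.00461), and for *Col28a1* in other cells after thinning (0.000486). Another 20 turned among ratios whose interval spans 0, all of *Col5a3*, *Col6a2*, *Col8a2*, *Col11a1* and *Col23a1*; without tenocyte-marker cells *Col11a1* went to −0.50 and *Col8a2* to −0.42 in all cells. The cause was not tested. Another 131 counts and sums and 613 ratios of single collagens moved by less than the limits used, and 285 ratios of single collagens moved outside their counting interval. Leaving out cycling cells dropped 57 and 116 cells, tenocyte-marker cells 131 and 285, adipocyte-marker cells 14 and 92, and thinning 120 and 210 shallower cells.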
